A study of Sus scrofa with 80 samples.

Results

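The testis of the Göttingen minipig, from the age at which sperm production has begun, was compared with 8 other organs. The aim was to find the genes that it alone expresses or holds far over the others. Samples were chosen by organ and age: the 3 Testis samples of 2 months, 4 months and 2 years on one side, and on the other the 30 samples of Cerebellum, Hypothalamus, Cortex, Liver, Kidney, Spleen, Bone Marrow and Ovary taken at 2 and 4 months. These 33 arrays belong to a series of 80, which holds 72 tissue samples when the 8 technical repeats of the 2-year male kidney are counted as 1 and an array of renal pelvis is set aside. All groups were untreated minipigs of 1 breed and 1 breeder with no transgene or deletion. In 7 of the organs there was 1 male and 1 female sample at each age (n = 4), and in Ovary 1 female sample at each age (n = 2). The 2-year male differed in that it had grown up at another site, on other food. An organ has 1 sample for each sex and age, and the labels name no animal. Organs of the same sex and age may therefore come from the same pig, and the 3 testes differ in animal and in age at once. The p-values below therefore measure only the spread between these samples. Total RNA was labelled with Cy3 and hybridised to a custom 1-colour porcine Agilent array. A level is the log2 of the quantile-normalised median spot signal averaged over the spots of a gene, so that a difference of 1 is 2-fold, and levels are compared between samples and never between genes.

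In the seminiferous tubules spermatogonia divide and renew themselves, spermatocytes pass through meiosis, and round spermatids reshape into sperm with a condensed nucleus, an acrosome that carries the enzymes for reaching the egg, and a flagellum. Sertoli cells nurse the germ cells within the tubule, while Leydig cells between the tubules make testosterone from cholesterol. Many proteins of the late germ cell are made nowhere else, and some enzymes of general metabolism have a separate gene for this cell.

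Between 66.4% and 67.7% of genes were well above background on the testis arrays, against 59.9% to 74.7% on the organ arrays, and the median raw signal was 60 to 89 against 29.5 to 79. The 3 testis arrays lay on 3 slides, of which the one with the 2-year sample held 2-year samples only. The median difference between testis and the mean of the 8 organs over all 23722 genes was -0.32 on the log2 scale, and it lay between -0.09 and -0.49 under 4 other scalings. Among the organ arrays the Cortex of the 4-month male stood apart from the other Cortex arrays in testis genes, and its values are given where they bear on a result. The label was borne out by the defining markers: INSL3, the hormone of Leydig cells, and PRM1, PRM2 and TNP1, nuclear proteins of the spermatid, were at the scanner's ceiling on all 3 testis arrays. Markers of the epididymis, the duct attached to the testis, were on average near the level of the other organs. Their mean over 12 genes was 3.28 to 3.81 in testis and 3.50 to 4.01 in the organs. By the test below 8 of the 12 were lower and 1 was higher than the mean of the organs, beside 47.1% and 25% of all genes. Of the 12, 7 were not well above background on any testis array. Single genes differed from the mean of the organs by -0.89 to 3.65. ADAM7, known from the epididymis, had 8.06, 7.85 and 2.42 in testis against 1.78 to 3.50. SPAG11B and ELSPBP1, also known from the epididymis and picked by their values, were outside the list. SPAG11B had 8.56, 9.16 and 8.72 against 2.30 to 4.76, and ELSPBP1 5.99, 5.67 and 5.56 against 0.29 to 3.12. The share of epididymis in the testis samples was not tested. In whole tissue, fewer cells of a type and less RNA per cell cannot be told apart.

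More genes were lower than higher in testis against the mean of the 8 organs, while the widest gaps were those of genes higher in testis. At an adjusted p under 0.05 (limma, Benjamini-Hochberg over all genes), 5931 of 23722 genes (25%) were higher in testis and 11163 (47.1%) were lower. With the 30 organ arrays taken as 1 group these were 4107 (17.3%) and 5000 (21.1%). Tested against each organ in turn, 2868 genes (12.1%) were higher in testis than in all 8, and 2273 (9.58%) were lower than in all 8. Taken singly, 21.4% of genes were higher in testis than in Ovary, 25.5% than in Kidney, 26% than in Spleen, 26.1% than in Hypothalamus, 26.3% than in Bone Marrow, 27% than in Cerebellum, 27.2% than in Liver and 27.3% than in Cortex. Every testis array was over every organ array for 2669 genes (11.3%) and under every organ array for 2571 (10.8%). The 2 directions were alike in number here and unlike in size. The lowest testis value was at least 2 log2 units, or 4-fold, over the highest of the 30 organ values for 949 genes (4%), and the same gap in the other direction was met by 7 genes (0.0295%).

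The 949 genes are called testis-restricted below, and since their values chose them they are described without a test. Their median gap was 3.71 log2 units, and 279 had a gap of at least 5. Just inside the limit was SPATS1 with a gap of 2.002, and just outside it DDX20 with 1.998. In 201 of the 949 no organ array was well above background, which was not counted over all genes. Each organ array had 496 to 763 of the 949 over the 95th percentile of its negative control spots. Of all genes 76.5% to 88.9% were over this limit on the organ arrays. The name thus stands for the gap and not for absence elsewhere. YBX1, for example, had 15.49, 15.93 and 15.34 in testis and 11.07 to 13.28 in the organs. The number of restricted genes depends on the handling of dim signal, and was 616 with an offset of 50 added to the intensities.

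Organ samples that had no part in the choice were then looked at. In the 37 organ samples of 1 week, 4 weeks and 2 years, 944 of the 949 genes lay under the lowest testis value in every sample, and 849 kept the full gap. Taken alone, the 2-year organs left the full gap to 926 genes and the organs of 1 and 4 weeks to 857. Of the 5 genes not under the lowest testis value in all of these samples 3 had a name, and they are given because of their values. They were RHOXF1, a homeobox gene of germ cells, with 8.98 in the 4-week Ovary against 9.10, 8.40 and 8.50 in testis, and MYOZ1 and PGAM2, both known from skeletal muscle, with 12.61 and 10.23 in 1-week Bone Marrow. The mean level of the 949 genes was 9.62 to 9.75 in the 3 testis samples, 3.68 to 4.17 in the 30 organ samples and 3.67 to 4.36 in the 37 others. No organ sample of any age came within 5 log2 units of testis on this mean.

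**Figure D1:**
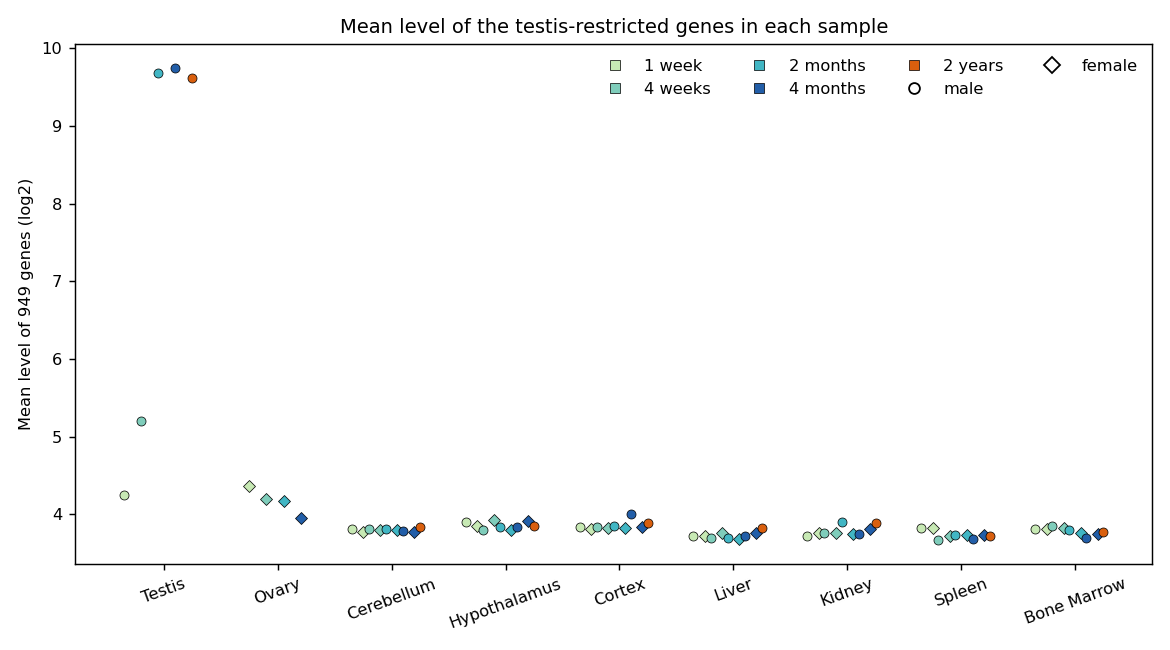
Each point is the mean level (log2) of the 949 testis-restricted genes in 1 sample, by organ, age and sex. The testis samples of 2 months, 4 months and 2 years lie between 9.62 and 9.75, the organs used in the choice between 3.68 and 4.17, and the organs of other ages between 3.67 and 4.36. The infant testes lie at 4.25 (1 week) and 5.20 (4 weeks).

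The 25 named genes with the widest gap, 8.56 to 10.25 log2 units, were led by genes of the spermatid. TSSK2, a kinase of elongating spermatids, had levels of 14.08, 14.57 and 14.03 in the testes of 2 months, 4 months and 2 years, and 1.46 to 3.78 in the organs (median 2.39). CCIN, or calicin, of the cytoskeleton around the sperm head, had 13.62, 13.69 and 13.37 in testis and 1.42 to 3.12 in the organs (median 2.07). Neither gene was well above background on any array of any organ. The difference came to at least 2213-fold for TSSK2 and at least 1448-fold for CCIN, where "at least" marks a bound against the weakest signal that counted as above background.

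SMCP, a protein of the capsule around sperm mitochondria, had levels of 14.72, 14.78 and 14.79 against 1.70 to 4.86 in the organs. CRISP2, a cysteine-rich secretory protein of acrosome and flagellum, had 15.02, 15.31 and 14.97 against 0.54 to 5.28, and HMGB4, a chromatin protein of germ cells, 13.93, 14.49 and 13.81 against 2.25 to 4.32. In all 3 genes the testis values lay within 1 log2 unit of each other and more than 9 units over the organs. UBQLNL, a ubiquilin-like gene, had 14.34, 14.56 and 14.54 against 2.41 to 4.45. ZNRF4, a ubiquitin ligase, had 15.18, 15.14 and 15.44 against 2.07 to 5.31, and OAZ3, the antizyme of spermatids, 14.68, 14.96 and 14.66 against 3.37 to 5.56.

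Of the 25 genes, 13 were members of the lists of germ cell genes described below and 12 were in none. Besides SMCP, UBQLNL, HMGB4 and ZNRF4 the latter were FSCN3, the testis fascin, which bundles actin, with 12.36, 13.13 and 12.46 against 1.37 to 3.20, ACSBG2, which activates long-chain fatty acids, with 13.03, 13.96 and 13.63 against 2.58 to 4.47, DUSP13, a dual-specificity phosphatase, with 12.02, 11.97 and 12.02 against 1.97 to 3.30, and IRGC, an immunity-related GTPase, with 12.91, 13.43 and 13.06 against 1.76 to 4.08. LELP1, TP53TG5 and the open reading frames C7orf34 and C2orf51 completed it. All 25 kept a gap of at least 5.87 log2 units to the organ samples outside the choice, the smallest being that of DUSP13.

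**Figure D2:**
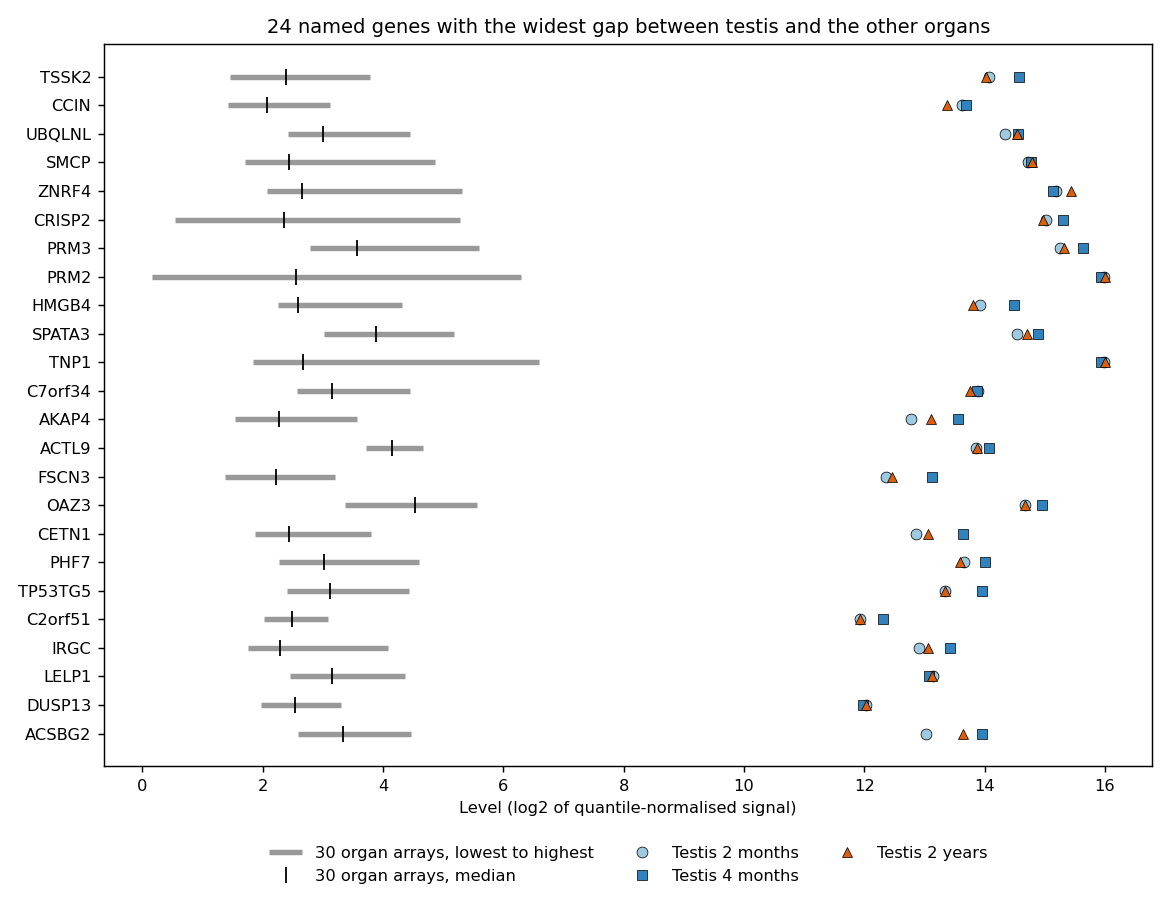
Levels (log2, x axis) of 24 of the 25 named genes with the widest gap (y axis) in the 3 testis samples and over the 30 organ arrays. Every testis value lies between 11.93 and 16.00 and no organ value exceeds 6.59; PRM2 and TNP1 are at the scanner's ceiling in testis.

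A second reading asked for detection instead of size. Against the 95th percentile of the negative control spots, 100 genes (0.422%) were over the limit on all 3 testis arrays and on none of the 30 organ arrays, and 42 of them were also restricted. The count was 212 with the 99th percentile and 362 with the scanner's own flag. In the 37 organ samples outside the choice 45 of the 100 genes stayed under the limit throughout. The 38 with a name, picked here by their values, were led by KIF2B, a microtubule-depolymerising kinesin, with 10.87, 11.23 and 10.53 against 1.49 to 2.73. ASB17, an ankyrin-repeat gene, had 10.17, 10.65 and 9.79 against 1.89 to 2.88, and CST8, a cystatin of the male tract, 9.31, 10.37 and 9.77 against 1.59 to 2.53. Further genes over the limit in testis alone were the lysozyme-like LYZL2 (8.57, 7.43 and 8.42), the spermatid kinase TSSK6 (5.58, 6.13 and 6.07) and the flagellar tektin TEKT3 (5.80, 5.16 and 5.90). CATSPER3, a calcium channel subunit, met the rule in 1 of its 2 rows (4.45, 3.30 and 4.32), whereas the other had 7.65, 7.01 and 7.48 in testis and was over the limit on 12 organ arrays. CDK9, a kinase of transcription known from all tissues, had 5.98, 5.98 and 6.16 against 1.69 to 2.78, but a second row had 5.99, 5.95 and 6.04 against 6.62 to 8.22 and was lower than in all 8 organs. What the probes of either row detect was not tested.

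Germ cell genes were then taken in 10 lists by stage and structure, and in each the share of genes higher in testis than in all 8 organs exceeded the 12.1% of all genes. Members of these and the later lists were chosen with earlier results of these data known. The shares are therefore a description and no independent support. A gene can be in more than 1 list, as CETN1 is. The median difference from the mean of the organs was 0.17 for spermatogonia and germline genes, 2.77 for meiosis, 3.22 for the piRNA pathway, 3.68 for sperm chromatin, 3.26 for spermatid regulators, 5.97 for acrosome and egg binding, 4.41 for fibrous sheath and dense fibers, 2.16 for the axoneme, 1.92 for sperm ion channels and 2.47 for testis isozymes, beside -0.32 for all genes.

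**Figure D3:**
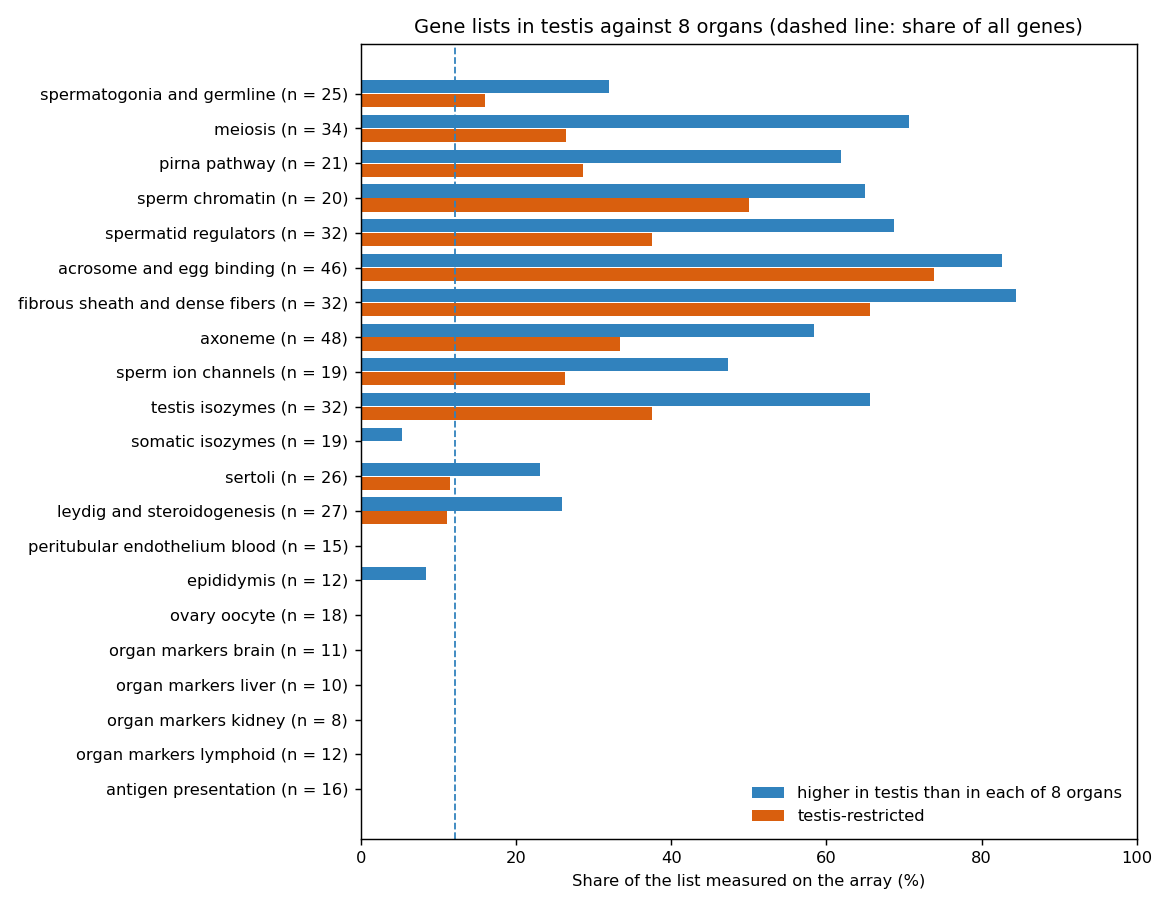
Share of each gene list (percent, x axis) that was higher in testis than in each of 8 organs (adjusted p under 0.05 in each) and share that was testis-restricted, with the 12.1% of all genes marked. Fibrous sheath and acrosome genes have the longest bars (27 of 32 and 38 of 46 genes), and the lists for blood and vessels, oocytes, brain, liver, kidney, lymphoid cells and antigen presentation have none. The lists were chosen with earlier results of these data known.

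Spermatogonia and germline genes went both ways. Of 25 measured, 12 were higher and 10 lower than the mean of the organs, beside 25% and 47.1% of all genes, and 8 were higher than in all 8, beside 12.1%. The 10 became 6 with the slide as a fixed block and 5 with the organ arrays taken as 1 group. TEX19, which restrains retrotransposons in germ cells, had levels of 11.62, 11.03 and 10.88 against 1.16 to 6.19 in the organs. DMRT1, which keeps germ and Sertoli cells male, had 9.26, 8.67 and 8.45 against 1.22 to 5.28. In both the 2-month Ovary was the highest organ sample. SOHLH1, a transcription factor of differentiating spermatogonia, had 6.26, 6.07 and 5.92 against 2.66 to 4.53 (at least 6.01-fold higher, adjusted p = 9.23e-14). Its partner SOHLH2 had 8.00, 7.22 and 5.96 and was higher than in 7 organs, with 7.32 in the 2-month Ovary. Receptors of spermatogonia were lower than the mean of the organs. GFRA1, the GDNF receptor of undifferentiated spermatogonia, had 4.15, 3.65 and 3.55, not well above background on any testis array, against 2.61 to 8.03 (difference -2.18 ± 0.22 SE, adjusted p = 4.54e-10), and KIT, the stem cell factor receptor of differentiating spermatogonia, 7.72, 7.67 and 7.79 against 5.35 to 10.96 (difference -1.51 ± 0.36, adjusted p = 0.000438). With the 30 organ arrays as 1 group the adjusted p of KIT was 0.181.

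Meiosis genes were higher in 31 of 34 measured and lower in none, and 24 were higher than in all 8 organs. SYCE3, of the central element of the synaptonemal complex, had levels of 11.36, 11.45 and 11.38 against 2.29 to 3.24 in the organs, at least 312-fold higher (adjusted p = 5.65e-30). HORMAD2, of the unsynapsed chromosome axis, had 9.23, 9.31 and 8.89 against 2.38 to 3.76, and DMC1, the strand-exchange protein of meiosis, 6.77, 7.41 and 6.80 against 1.05 to 3.06. The testis values of the 3 genes lay over those of all organs by more than 3 log2 units. In other members the 2-month Ovary, which holds oocytes in meiotic arrest, came nearer: SYCP3, of the lateral element, had 10.63, 10.28 and 10.46 with 9.12 in that sample, and STAG3, a meiotic cohesin, 13.84, 13.80 and 13.43 with 9.95. SPO11, which cuts DNA to start recombination, was not well above background in testis (2.56, 3.22 and 3.43) and did not pass the test (adjusted p = 0.126), although it did without the 2-month testis (adjusted p = 0.0364) and without 1 of the Kidney arrays (adjusted p = 0.0395).

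The piRNA pathway, which silences transposons in germ cells by small RNAs, was higher in 19 of 21 genes and lower in none. In 13 genes testis was over all 8 organs, and this count was 11 without the 4-month Ovary, 16 without the 2-month Ovary and 17 with Ovary left out. GTSF1, a cofactor of PIWI proteins, had levels of 10.34, 10.13 and 10.16 against 1.97 to 7.55 in the organs, and MOV10L1, the helicase at the start of piRNA production, 9.49, 9.77 and 9.48 against 2.85 to 6.07. PIWIL1, which carries piRNAs, had 7.85, 8.05 and 7.69 (difference 2.98 ± 0.15), and its relative PIWIL2 5.73, 6.34 and 5.67 (at least 6.92-fold higher). For all 4 genes the highest organ sample was the 2-month Ovary. PIWIL4 and TDRD6 were not well above background on any testis array and did not pass the test, although TDRD6 passed as lower with median scaling (adjusted p = 0.00419).

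Of 20 sperm chromatin genes, which replace histones first by transition proteins and then by protamines, 15 were higher and 2 lower, 13 were higher than in all 8 organs and 10 were restricted. PRM1, PRM2 and TNP1 were at the ceiling in testis (15.99, 15.93 and 16.00 for each), and TNP2, a further transition protein, had 13.36, 14.47 and 13.29 against 6.60 to 8.69 in the organs. Outside testis PRM1 ran from 2.79 to 9.80, and the Cortex of the 4-month male was its highest sample, as it was for PRM2 with 6.30 and TNP1 with 6.59. Without that array 951 genes were restricted. PRM3, a further protamine gene, had 15.26, 15.63 and 15.31 against 2.79 to 5.60, at least 3073-fold higher. PHF7, a histone reader of germ cells, had 13.66, 14.01 and 13.59 against 2.27 to 4.60, and the spermatid linker histone H1FNT 9.58, 10.03 and 9.52 against 1.71 to 3.53. Each of these 3 genes was more than 5 log2 units over all organ samples. The 2 genes that were lower were the chromatin regulators BRWD1 (difference -0.90 ± 0.12, adjusted p = 1.46e-07) and CHD5 (difference -0.55 ± 0.12, adjusted p = 0.000122), the latter not past the threshold with Cerebellum left out (adjusted p = 0.0959).

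Spermatid regulators, the transcription factors, RNA binders and kinases of spermatids, were higher in 26 of 32 and lower in 5, with 22 higher than in all 8 organs. YBX2, which stores messages of the spermatid, had levels of 15.04, 15.93 and 15.06 against 4.19 to 8.63 in the organs, 795-fold higher than their mean with the 4-month value at the scanner's ceiling. SPATA16, needed to form the acrosome, had 9.77, 9.99 and 9.81 against 2.35 to 3.34. RFX4, a factor of ciliary genes, had 9.90, 10.62 and 9.72 and reached 8.51 in Hypothalamus (at least 41.2-fold higher, adjusted p = 8.16e-22). CREM, a master regulator of spermatid transcription, differed by less, with 5.25, 5.46 and 5.26 against 2.88 to 4.25 (at least 3.84-fold higher, adjusted p = 1.92e-15), and its second row, with 8.24, 8.65 and 8.48 against 6.40 to 8.98, was higher than the mean but not than all 8 organs (difference 0.77 ± 0.12). SPATA6, of the sperm neck, is on the array in 2 rows of opposite direction: the row counted had a difference of -0.35 ± 0.13, and the other had 11.64, 12.28 and 11.69 against 2.77 to 5.27.

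Of 46 acrosome and egg binding genes 38 were higher than in all 8 organs and 34 were restricted, beside 12.1% and 4% of all genes. The list's mean level was 9.26 to 9.48 in testis and 3.65 to 4.14 in the organs. ACR, the protease acrosin, had levels of 13.38, 12.90 and 13.23 against 2.84 to 7.91, at least 598-fold higher, and ACRBP, which binds its precursor, 14.88, 14.85 and 14.75 against 5.27 to 8.86, 231-fold higher. Both were well above background on some organ arrays, ACR on 15 and ACRBP on 30. IZUMO1, the sperm ligand in fusion with the egg, had 10.11, 8.96 and 10.12 against 2.81 to 4.96, at least 60.6-fold higher (adjusted p = 1.12e-20), and PLCZ1, the phospholipase that activates the egg, was 213-fold higher in 1 row (adjusted p = 7.94e-27) and 128-fold higher in a second. ZPBP, which binds the zona pellucida, had 12.57, 12.57 and 12.53 against 2.20 to 4.81.

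Actin-like proteins of the sperm head were restricted too. ACTL7A had 12.60, 12.48 and 12.41 against 2.33 to 4.05, ACTL7B had 13.51, 11.78 and 13.21 against 2.21 to 5.15, and ACTL9 had 13.85, 14.07 and 13.88 against 3.72 to 4.66. Of the ADAM proteins, metalloprotease relatives of the sperm surface, ADAM3A, ADAM29, ADAM2 and ADAM20 were restricted, with 12.58, 12.96 and 12.15 for ADAM3A and 6.96, 5.58 and 6.38 for ADAM20. Members not well above background on any testis array were SPACA1 (2.82, 2.51 and 3.04), DCST1, DCST2, PICK1 and ADAM21.

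Of 32 fibrous sheath and dense fiber genes, which form the accessory structures of the flagellum, 30 were higher, 27 higher than in all 8 organs and 21 restricted. AKAP4, the main protein of the fibrous sheath, had levels of 12.78, 13.56 and 13.10 against 1.54 to 3.57 in the organs, at least 1072-fold higher. Its partner AKAP3 had 14.18, 13.82 and 13.95 against 6.18 to 8.88, 127-fold higher than their mean. ODF1 of the outer dense fibers had 6.19, 6.37 and 6.33 against 2.90 to 4.05, and ODF4 12.44, 12.82 and 12.84 against 6.25 to 8.17. These and ODF3 were restricted, whereas ODF2, also a protein of centrosomes in other cells, had 6.47, 6.59 and 6.34 against 4.48 to 5.83. ROPN1B, a ropporin, had 14.51, 14.39 and 14.31 against 3.22 to 7.22, and SEPT12, a septin of the ring below the midpiece, 12.99, 13.04 and 12.94 against 2.37 to 4.97. SEPT4, a septin of the same ring that is also known from brain, had 12.52, 12.26 and 11.97 against 9.60 to 14.98 and did not pass the test (difference 0.06 ± 0.13, adjusted p = 0.691). It was higher than in 4 organs and lower than in 3.

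The axoneme, the microtubule core that sperm share with motile cilia, had 37 of 48 genes higher, 3 lower, 28 higher than in all 8 organs and 16 restricted. DNAI2, a chain of outer arm dynein, had levels of 10.78, 11.29 and 10.70 against 3.32 to 6.57 in the organs, and LRRC6, a dynein assembly factor, 11.71, 11.57 and 11.69 against 2.42 to 6.93. CETN1, the centrin of sperm, had 12.85, 13.64 and 13.06 against 1.87 to 3.79, the widest gap of this list. FOXJ1, the regulator of motile cilia, did not pass the test, with 4.07, 3.96 and 4.28 against 3.67 to 4.81 (difference -0.10 ± 0.11, adjusted p = 0.439).

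Of 19 sperm ion channel and transporter genes 14 were higher and 9 higher than in all 8 organs. CATSPER1 and CATSPER4, pore subunits of the calcium channel that drives hyperactive swimming, were higher than in all 8, CATSPER1 with 9.19, 8.33 and 9.14 against 2.14 to 6.15 and CATSPER4 with 7.96, 7.47 and 7.49 against 1.80 to 3.38. ATP1A4, the sodium pump of the flagellum, had 8.90, 9.04 and 8.82 against 2.63 to 4.32. KCNU1, the potassium channel of sperm, was not well above background in testis (1.46, 1.97 and 1.97), nor was ADCY10, the soluble adenylyl cyclase (2.23, 2.62 and 2.52), which was lower than the mean of the organs (adjusted p = 0.000129).

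Enzymes and structural proteins with a separate testis gene were set beside the widely expressed counterpart in 15 pairs. The testis gene was higher than in all 8 organs in 13 pairs, beside 12.1% of all genes. The counterpart was lower than the mean of the organs in 12, beside 47.1% of all genes, and both held in 10. The median difference of all genes was itself -0.32. One counterpart, SLC25A4, was not well above background in testis or any organ, and without its pair the last counts were 11 and 9. LDHC, the lactate dehydrogenase of sperm, had levels of 13.05, 13.63 and 12.70 against 2.53 to 9.31 in the organs, and LDHA 5.10, 4.84 and 4.83 against 5.06 to 6.07 (at least 492-fold higher and a difference of -0.60 ± 0.13, adjusted p = 2.21e-20 and 0.000131). The second row of LDHC was at least 221-fold higher. With the slide as a fixed block LDHA did not pass the test (adjusted p = 0.0948). GAPDHS, the glycolytic dehydrogenase of the flagellum, had 8.95, 9.44 and 9.14 against 1.94 to 3.61, and GAPDH 8.23, 8.19 and 8.92 against 9.08 to 12.10 (at least 67.9-fold higher and a difference of -2.13 ± 0.20, adjusted p = 1.32e-26 and 9.14e-11). In both pairs the testis gene was higher than in the organs and the common gene lower. RPL10L, an autosomal copy of an X-linked ribosomal protein gene, was at least 587-fold higher, and RPL10 differed by -1.86 ± 0.12 (adjusted p = 2.37e-24 and 4.6e-14). PDHA2 and GK2, also copies of X-linked genes, were at least 2.76-fold and at least 36.8-fold higher, and PDHA1 and GK differed by -1.92 ± 0.11 and -1.56 ± 0.20.

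Not every pair went this way. CAPZA3 and CALR3, an actin capping protein and a chaperone, were higher than in all 8 organs, while CAPZA1 and CALR were also higher than the mean (at least 1.89-fold higher for CAPZA1, and a difference of 0.33 ± 0.11 for CALR). The difference of CALR was -0.27 with the processed signal and -0.21 with median scaling, past the threshold in neither. The centrin CETN2 did not pass the test (difference -0.22 ± 0.14, adjusted p = 0.157). PPP3R2 and PPP3CC, calcineurin subunits known from sperm, were not higher than in any organ, PPP3R2 with 2.64, 2.73 and 2.66 in testis and PPP3CC with 1.42, 1.32 and 1.70, the latter not well above background. Over the whole list of 19 counterparts 15 were lower than the mean of the organs, 14 without SLC25A4, and 2 were higher, beside 47.1% and 25% of all genes. Probe sequences were not used here, so that cross-hybridisation between such copies was not tested.

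**Figure D4:**
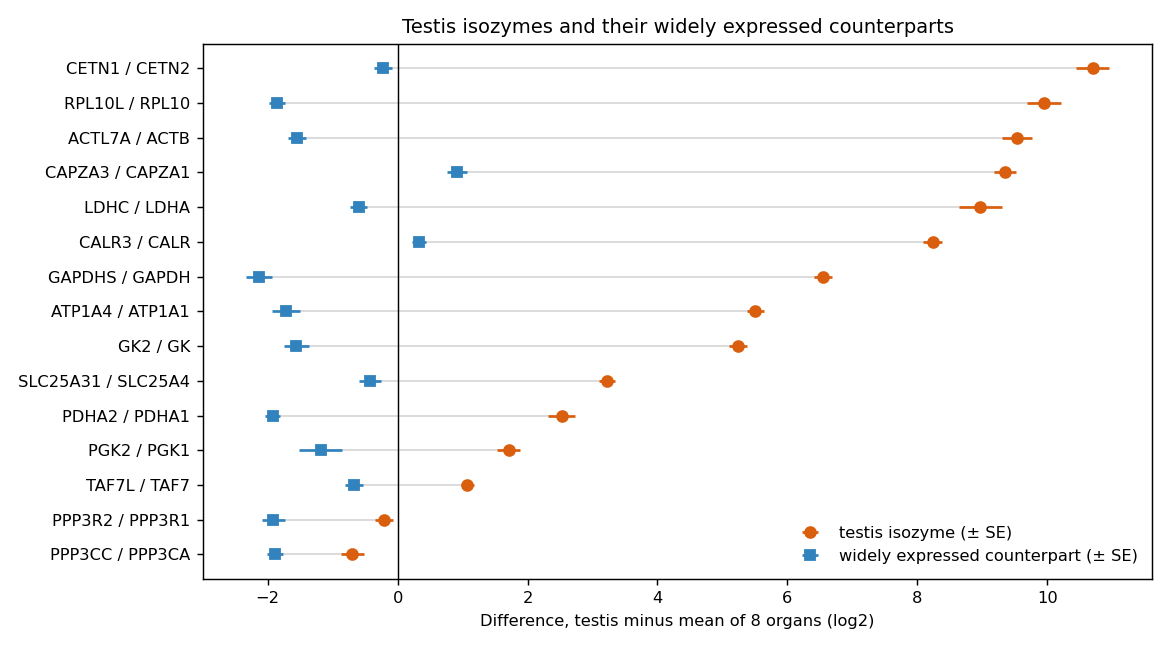
Difference between testis and the mean of 8 organs (log2, x axis; bars are standard errors from limma) of 15 testis genes and of the widely expressed counterpart of each. For 12 of the testis genes some organs were not well above background, and the fold is only bounded from below. The median difference of all genes is -0.32. The testis gene lies to the right of 0 in 13 pairs, while 13 of the counterparts lie to the left, CAPZA1 and CALR being the others; CALR turns to the left with the processed signal or median scaling.

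Genes of the somatic cells of the testis were often shared with Ovary, whose granulosa and theca cells are their counterparts. Of 26 Sertoli cell genes 15 were higher than the mean of the organs and 6 higher than in all 8, beside 25% and 12.1% of all genes, and the latter count was 3 without the 4-month testis, 4 without the 2-year testis and 11 with Ovary left out. FATE1, a gene of the fetal and adult testis, had levels of 12.50, 12.50 and 12.11 against 1.94 to 7.37, and DEFB119, a beta-defensin, 8.98, 8.37 and 8.30 against 2.34 to 4.02. Both were restricted. GATA4, a factor of gonadal somatic cells, had 9.89, 10.55 and 10.21 with 11.49 in the 2-month Ovary, and the FSH receptor FSHR 4.86, 5.00 and 4.66 with 7.21 in the 4-month Ovary. AMH, the hormone of immature Sertoli cells, had 13.58 in the testis of 1 week and 11.02 at 4 weeks, and in the 3 older testes 7.38, 7.24 and 6.96, lower than the mean of the organs (difference -1.01 ± 0.15, adjusted p = 8.92e-07, and 0.175 with the organ arrays as 1 group).

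Of 27 Leydig cell and steroid genes 18 were higher than the mean of the organs and 7 higher than in all 8, beside 25% and 12.1% of all genes. The latter count was 4 without the 2-month Ovary and 11 with Ovary left out. INSL3 was at the ceiling in testis and at 10.71 and 13.93 in the 2 Ovary samples, while the other 7 organs had no array over 3.23. STAR, which brings cholesterol into mitochondria, had levels of 10.12, 10.13 and 11.49 against 1.44 to 9.31, and CYP11A1, which cleaves its side chain, 10.99, 10.39 and 11.40 against 1.52 to 10.43, the 4-month Ovary being highest in both. HSD17B3, which makes testosterone from its precursor, had 7.73, 7.38 and 6.39 against 3.27 to 4.39, and SRD5A1, a 5-alpha-reductase, 7.58, 8.03 and 8.60 against 1.07 to 5.18. These last were restricted, although a second row of HSD17B3 had a gap of 1.64, and HSD17B3 was lower and SRD5A1 higher at 2 years than in the younger testes. CYP17A1, which makes androgens, has 2 rows of opposite direction, of which the row counted had a difference of -0.33 ± 0.12 and the other had 10.99, 11.08 and 12.16 against 1.68 to 9.89, at least 235-fold higher. At 2 years 17 of the 27 genes were over both younger testes, beside 30.3% of all genes, and 5 were 2-fold or more over their mean, beside 1.8%, while 2 were 2-fold or more under it, beside 0.94%. Age, animal, site and slide cannot be told apart in the 2-year sample.

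**Figure D5:**
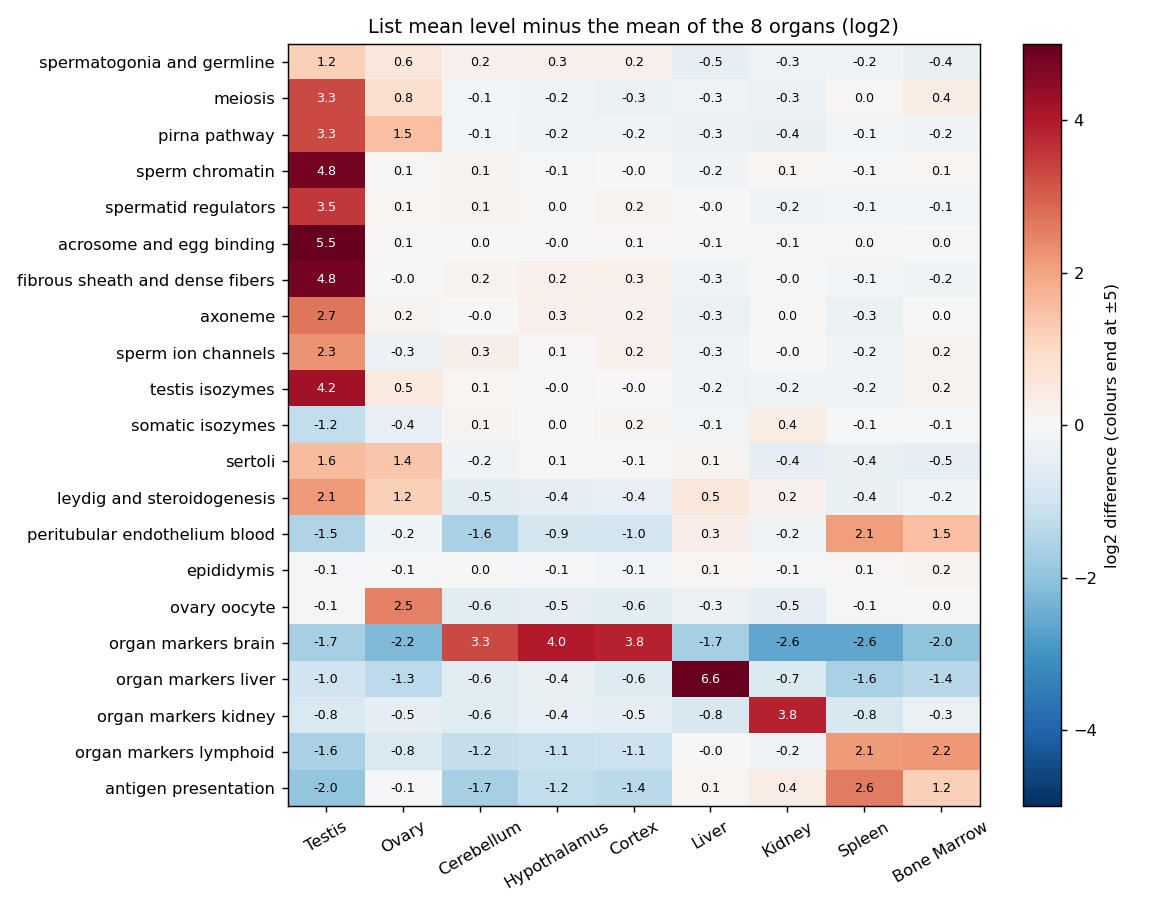
Mean level of each gene list (rows) in each organ (columns) minus the mean of the 8 organs (log2), over the testes of 2 months to 2 years and the other organs at 2 and 4 months. Germ cell lists are highest in testis, up to 5.53 for acrosome genes. Sertoli and Leydig genes are also high in Ovary (1.38 and 1.21). Antigen presentation genes are lowest in testis (-1.97) and also low in Cerebellum (-1.66), Cortex (-1.35) and Hypothalamus (-1.23).

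Among the genes lower in testis, those of antigen presentation stood together. Of 16 measured, 15 were lower than the mean of the organs, beside 47.1% of all genes, and 5 lower than in all 8, beside 9.58%. B2M, the light chain of class I molecules, had levels of 12.12, 10.90 and 10.96 against 11.48 to 15.11 in the organs (difference -2.09 ± 0.20, adjusted p = 9.16e-11), and TAP1, which brings peptides to them, 7.72, 7.45 and 7.16 against 8.51 to 12.67 (difference -2.46 ± 0.15, adjusted p = 4.98e-15). All 3 testis values of TAP1 were under those of all 30 organ arrays. The immunoproteasome subunits PSMB9 and PSMB10 differed by -2.29 ± 0.18 and -2.17 ± 0.19, and CD74, the class II invariant chain, by -2.73 ± 0.31 (adjusted p = 4.6e-09, and 0.0738 with the organ arrays as 1 group). Of 12 lymphoid markers 11 were lower and none higher, and PTPRC, or CD45, of all leukocytes was not well above background on any testis array. Of 15 markers of vessels, blood and peritubular muscle 12 were lower and none higher, with a list mean of 5.32 to 5.83 in testis and 5.35 to 9.37 in the organs. With the 30 organ arrays taken as 1 group the lower genes numbered 9 for antigen presentation, 2 for lymphoid markers and 5 for vessels, blood and peritubular muscle, beside 21.1% of all genes. Minus the mean of the organs, antigen presentation genes lay at -1.97 in testis and -1.66 to -1.23 in Cerebellum, Cortex and Hypothalamus. Spleen lay at 2.61 and Bone Marrow at 1.21. Lymphoid markers lay at -1.63 in testis and -1.18 to -1.06 in the same brain regions. The list of vessels, blood and peritubular muscle lay at -1.49 in testis and -1.61 in Cerebellum. The low levels were thus shared with brain regions. The part of leukocytes and vessels in the result for antigen presentation was not tested.

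The 10 named genes with the widest gap under the organs lay 1.71 to 3.69 log2 units below the lowest of the 30 organ arrays. ID2, an inhibitor of basic helix-loop-helix factors, had levels of 5.00, 4.58 and 5.31 against 8.99 to 11.60 in the organs. CX3CR1, the fractalkine receptor of macrophages and microglia, had 3.06, 2.54 and 3.01 against 5.57 to 9.68, and AIF1, another macrophage gene, 5.96, 5.18 and 5.61 against 7.98 to 12.70. The testis values of these 3 genes were under the organ values on all arrays. HIP1R, of endocytosis, had 5.85, 5.37 and 6.25 against 8.55 to 11.56, and SMAD7, an inhibitor of TGF-beta signals, 5.59, 5.59 and 5.13 against 7.78 to 9.56. TMEM125 was not well above background on any testis array, and the organs were at least 57.9-fold higher. ZNF467, IQSEC2, SEPT11 and SRI completed the group. Genes over the detection limit on all 30 organ arrays and under it on all testis arrays numbered 10 (0.0422%), and 40 without the 4-month testis. They included MET, picked by its values, the receptor of hepatocyte growth factor, with 2.50, 2.22 and 2.54 and a lowest organ value of 3.50.

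Some genes were high in testis and in 1 other organ. With both at least 2 log2 units over all remaining arrays, 8 such genes were found for Liver, 8 for Bone Marrow, 7 for Ovary, 6 for Kidney, 1 for Cerebellum, 1 for Spleen and none for Hypothalamus and Cortex, and the total of 31 depended on the Ovary samples, being 89 without the 4-month and 47 without the 2-month Ovary. C9H11orf70, an open reading frame, had levels of 9.64, 9.87 and 9.65 in testis and 9.32 to 9.86 in Kidney, with at most 4.64 elsewhere. SPATA4, a spermatogenesis-associated gene, had 7.52, 7.72 and 7.63 in testis and 7.90 to 8.80 in Liver. CEP76, a centriole protein, had 11.06, 10.76 and 10.84 in testis and 11.31 to 11.57 in Cerebellum. In SPATA4 and CEP76 the other organ was over all 3 testis samples, and in C9H11orf70 the values overlapped. COX8C, a testis form of cytochrome oxidase, had 12.46, 12.00 and 11.71 in testis and 5.85 and 8.71 in Ovary, and the protegrin gene NPG1, of antimicrobial peptides, 10.70, 10.29 and 10.31 in testis with 15.90 to 16.00 in Bone Marrow.

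Of the 949 restricted genes 816 stayed within 2-fold over the 3 testes, and 1 differed by 4-fold or more at 2 years. The choice asked for a high value in every testis, so that part of this likeness was fixed by it. The median SD over the 3 samples was larger for restricted genes (0.273) than for all genes (0.213), beside 0.115 between the technical repeats of kidney. In the infant testes 920 of the 949 were at least 2 log2 units lower at 1 week and 844 at 4 weeks. At 1 week 12 were already within 1 unit of the later level. The shares of all genes within 2-fold, or lower in the infant testes, were not counted. Examples of these, picked by their values, were SULT1C3, a sulfotransferase, with 11.11 and 11.45 at 1 and 4 weeks and 10.09, 10.32 and 11.66 later, and PRND, the prion-like doppel gene, with 10.26 and 11.72 and later 10.38, 8.89 and 8.53.

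Over all genes, 53 were at least 4-fold higher and 28 at least 4-fold lower at 2 years than in the mean of the younger testes. UABP-2, a uteroferrin-associated basic protein of the serpin family, had levels of 2.97, 3.67 and 8.38, and IL1R2, a decoy receptor of interleukin-1, 6.42, 7.52 and 10.81. ADAM7, known from the epididymis, went the other way with 8.06, 7.85 and 2.42, and MDC1, a mediator of the DNA damage response, had 8.24, 9.08 and 6.03, while a second row of MDC1 had 7.07, 7.46 and 7.44. The epididymal genes CRISP1, LCN5 and LCN8 were not well above background in any of the 3 testes. With 1 sample at each age these differences have no test.

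By symbol, the 509 named restricted rows were many in some families. These counts are of array rows, and a gene can have several, as TEKT1, SPATA9 and SPATA22 do. All 5 tektin rows, 12 of 22 named SPATA and 7 of 9 named SPACA or IZUMO were restricted. So were 5 of 8 actin-like ACTL and ACTRT rows and 9 of 23 named ODF, AKAP or ROPN. Zinc finger rows named ZNF or ZFP were restricted in 2 of 244, TMEM rows in 4 of 206 and TTC rows in 0 of 36, beside 4% of all genes. Open reading frames without a functional name made up 71 of the restricted rows, out of 581 measured. The rows counted for the lists of known function held 127 of the 509 named rows. The other 382 include second rows of listed genes, such as those of LDHC and PLCZ1.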

How the data were processed

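Minipig tissues were measured on 80 one-colour arrays, and 33 of them were compared. The deposited scanner files hold the median spot intensity on a linear scale, the processed intensity and flags for saturated spots and spots well above background, made by the authors with Agilent Feature Extraction 11.5.1.1 per the submitters' processing notes. A deposited value table on the log2 scale holds the authors' normalised values. All its 80 columns have a median of 4.566, and it was used as an alternative. For probe intensities the study's methods name robust multi-array analysis with background correction and quantile normalisation, without saying how each array type was treated.

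Intensities of the 61289 gene spots were background corrected (normexp, offset 0), quantile normalised over the 80 arrays, turned to log2 and averaged over spots, then probes, then genes. The 14 genes without a value on every array were left out, and 23722 remained, of which 15271 had a name from the files or a RefSeq gene table. Tissue means were fitted with limma 3.58.1 in R 4.3.3, with 1 mean per tissue and no covariate, and p-values were adjusted by Benjamini and Hochberg over all genes at 0.05. A gene counted as higher than every organ when all 8 contrasts passed. The code was tested on simulated data. Detection was set at the 95th percentile of 308 negative control spots on each array. The precision is limited by the number of arrays, and saturated signals are bounds. Bounds written as "at least" set the brighter group against the lowest signal well above background on each array. Tables and figures were made with the R package data.table (version 1.17.8), python 3.11.15, pandas 2.3.3 and matplotlib 3.10.9.

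Samples were grouped by the organ and age in the labels. The study's methods name no test. Named genes are members of 21 lists and of 15 isozyme pairs, the 25 with the widest gap over the organs, the 10 with the widest gap under them, up to 3 for each organ that shared genes with testis, and the 5 in each direction that differed most at 2 years. Other genes were chosen after their values were seen, as stated beside them. Members and lists were chosen with earlier results of these data known. Of 588 listed genes 465 were on the array. In the lists and pairs 1 row was counted where a gene had several. Of 47 second rows 14 had another call and 5 the opposite direction. In the counts over all genes and of restricted genes each row stands alone. Alternatives covered the signal column, offset, scaling, probe summary, detection limit, filter, margin, organs, slide and each array left out. Some genes that the rule names are not reported here. Probe and promoter sequences were not used here.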

Additional observations from a re-analysis of the deposited data

Results flagged for a closer look

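Of 70 sets of 4 arrays, each an organ's mean over a gene list, 7 held an array far from the other 3, where chance gives about 1 in 20. That share is for separate sets. The sets of an organ use the same 4 arrays and in part the same genes, so that the 7 are not independent. In Cortex the 4-month male had a mean level of 4.01 for the testis-restricted genes against 3.85 in the nearest array, 5.50 against 4.73 for sperm chromatin, 4.86 against 4.70 for spermatid regulators and 4.58 against 4.41 for testis isozymes. In Liver the 4-month male was high for the piRNA pathway, with 3.91 against 3.75, and low for spermatid regulators, with 4.43 against 4.57. In Spleen the 4-month male was low for the testis-restricted genes, with 3.68 against 3.73.

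The array of renal pelvis of the 2-year male had no part in the comparisons. Testis-restricted genes that were at least 2 log2 units higher there than in the mean of the 8 technical repeats of kidney were MUC4, a membrane mucin, by 3.53 (7.03 against 3.51), MYCBPAP, a MYCBP-binding protein, by 2.32, FAM3D, a secreted protein, by 2.14, and C11orf20, an open reading frame, by 2.08. There is 1 renal pelvis array, so that these values have no replicate check.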

How the results depend on the processing

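Of 373 counts over all genes, 359 stayed within 1.5 times in 60 settings. Testis-restricted genes numbered 616 with an offset of 50, all among the 949, and 1520 and 624 with margins of 1 and 3 log2 units. With the processed signal there were 1041 (933 shared), with median scaling 920 (906 shared) and with the authors' value table, an alternative chosen after seeing the data, 1065 (942 shared). Testis-only genes numbered 212 with the 99th percentile, 362 with the scanner's flag and 57 with infant organs added, and genes off in testis alone 34 with the processed signal, 46 with the flag and 4 with infant organs added. With the organ arrays as 1 group 5000 genes were lower than the mean. At 2-fold or more 3810 were higher and 4934 lower than the mean and 545 lower than every organ. The share of higher calls was 34.7%, and 45.1% and 43.6% in these settings.

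Leaving out 1 array gave 5436 to 5994 genes higher and 10114 to 11245 lower than the mean, and 2691 to 2912 higher and 1813 to 2388 lower than every organ. It gave 949 to 1021 restricted, 100 to 133 testis-only and 10 to 40 off genes, the 40 without the 4-month testis. By their rules these counts of restricted, testis-only and off genes can only stay or rise when an array is left out.

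Among 147 named rows CALR turned from 0.33 to -0.27 with the processed signal and to -0.21 with median scaling. Over all settings 35 gene results fell short of the threshold they had passed, among them the counted rows of SPATA6 and CYP17A1. Another 12 passed it anew, and the cause was not tested. No paired analysis was possible because the labels carry no replicate numbers; with samples of the same age and sex as a random block 5936 genes were higher and 11193 lower than the mean, 2881 higher and 2311 lower than every organ, and no named gene changed its call. Detection limits were not applied to the value table, which holds no negative controls, and promoters were not analysed here.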

Other observations

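The values in the organs of PRM1, PRM2 and TNP1, whose products pack the sperm nucleus, were looked at after they had been seen in the Cortex of the 4-month male. PRM1 was 9.80 in that sample and 8.80 in the Kidney of the 2-month male. In the 14 male samples of 2 and 4 months outside the gonads it ran from 2.79 to 9.80 with a median of 5.52, and 10 were well above background, while the 14 female samples ran from 3.40 to 5.22 with a median of 3.69 and 4 well above background. The male sample was higher in 11 of 14 pairs of the same organ and age for PRM1, in 11 for PRM2 and in 12 for TNP1. Organs of the same sex and age may come from the same pig, so that the pairs need not be independent. PRM2 and TNP1 were also highest in the Cortex of the 4-month male and next in the Kidney of the 2-month male. At 1 and 4 weeks the medians of PRM1 were 3.39 in males and 3.34 in females, and the male was higher in 7 of 14 pairs. Over the restricted genes the median difference between male and female organs was 0.012 log2 units. The cause was not tested.

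Of the 949 restricted genes 155 had the highest organ value in the 2-month Ovary, 77 in the Bone Marrow of the 2-month male and 60 in the Cortex of the 4-month male. The same was not counted over all genes. The 2-month Ovary had the largest share of all genes well above background (74.7%, organ median 64.7%). The Bone Marrow array had the most flagged spots (590, organ median 84).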
